A study of Homo sapiens with 9 samples.

Results

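The NRF2 oxidative stress genes were 9 of the 58735 genes in the deposited table and were taken by symbol: NFE2L2, KEAP1, HMOX1, NQO1, GCLC, GCLM, TXNRD1, SRXN1 and SLC7A11. RNA was sequenced from KHM-5M, a human thyroid cancer cell line, kept for 24 h with DMSO, the vehicle, or with YK-4-279 at 0.3 μM or 1 μM. YK-4-279 is a small molecule described as an inhibitor of ETS family transcription factors. Each group held 3 samples, all from the same cell line, and no other agent or allele distinguished them. The samples are labelled as replicates, and the study's methods speak of biological replicates, but neither says that they were separate cultures, so that the p-values measure only the spread between these samples, which may be technical. The question asked of these genes was whether either dose changed their transcript levels.

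NRF2, the protein of NFE2L2, is a transcription factor that binds antioxidant response elements together with a small MAF protein. KEAP1, a redox-sensitive adaptor of the CUL3 ubiquitin ligase, holds NRF2 at a low level, and electrophiles or oxidants that modify KEAP1 let NRF2 accumulate and raise genes for glutathione synthesis, thioredoxin reduction, quinone reduction and heme breakdown. NRF2 is set largely by protein stability, which transcript levels do not measure.

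The core of the antioxidant response element, TGACNNNGC or GCNNNGTCA on the reverse strand, was searched on both strands of the RefSeq promoter windows of GRCh38.p14, which run from 250 bases before to 50 bases after a gene's start. No other motif was searched. It was found in 13.3% of all 35116 windows. Of the 9 genes, 7 had at least 1 window, and HMOX1 and SLC7A11 had none. The core was in 4 of their 10 windows, which belonged to GCLM, TXNRD1 and KEAP1. These windows are shown for the letters of the core, beside the measured levels of the same genes. Sequence outside the windows was not searched, so that a gene without a match may hold the core elsewhere. Each is printed 5′ to 3′ on the gene's strand from 250 bases before to 10 bases after the start, with the matches to the core in capitals.
GCLM, chr1:93909421-93909680, reverse strand: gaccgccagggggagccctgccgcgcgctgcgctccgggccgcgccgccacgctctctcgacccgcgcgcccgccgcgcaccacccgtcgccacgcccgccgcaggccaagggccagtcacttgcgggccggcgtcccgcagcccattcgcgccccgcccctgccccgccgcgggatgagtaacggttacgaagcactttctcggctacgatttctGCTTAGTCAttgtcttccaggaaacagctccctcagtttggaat
TXNRD1, upstream start, chr12:104215529-104215788, forward strand: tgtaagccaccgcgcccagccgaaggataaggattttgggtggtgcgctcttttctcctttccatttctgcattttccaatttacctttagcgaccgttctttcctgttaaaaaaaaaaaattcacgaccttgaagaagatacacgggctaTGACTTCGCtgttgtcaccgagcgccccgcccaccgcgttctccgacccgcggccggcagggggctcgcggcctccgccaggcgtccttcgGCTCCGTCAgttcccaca
TXNRD1, downstream start, chr12:104286782-104287041, forward strand: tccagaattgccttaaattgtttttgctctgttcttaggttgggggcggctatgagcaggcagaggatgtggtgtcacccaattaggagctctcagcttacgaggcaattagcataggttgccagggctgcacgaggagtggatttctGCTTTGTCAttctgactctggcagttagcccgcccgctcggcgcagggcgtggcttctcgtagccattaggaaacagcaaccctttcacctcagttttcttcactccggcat
KEAP1, second window, chr19:10502762-10503021, reverse strand: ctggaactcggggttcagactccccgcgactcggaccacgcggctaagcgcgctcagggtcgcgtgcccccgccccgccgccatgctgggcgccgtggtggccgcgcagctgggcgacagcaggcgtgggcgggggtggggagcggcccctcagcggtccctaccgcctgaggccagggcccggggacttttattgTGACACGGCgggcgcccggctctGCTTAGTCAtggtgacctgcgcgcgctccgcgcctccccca
The GCLM window held a single match, GCTTAGTCA, whose first base lay at -34 from the start. The KEAP1 window held the same GCTTAGTCA at -31 and TGACACGGC at -54. The upstream TXNRD1 window held TGACTTCGC at -99 and GCTCCGTCA at -8, and the downstream window GCTTTGTCA at -102. A match is a description of letters and was not tested as a binding site.

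Counts summed to between 16903251 and 18238884 per sample, and mitochondrial genes took 2.84% to 3.44% of them. Each of the 9 genes had at least 182 counts in every sample, far above the 3 counts that a gene with a count of 0 could still have by counting error. The thyroid factor PAX8 was at 22.5 FPKM (fragments scaled to gene length and library size, median of 9 samples). The 6 other thyroid markers, among them TG and TSHR, were at or near 0. Of the epithelial markers, the keratins KRT8 and KRT18 were at 191 and 133 FPKM, but KRT19 and EPCAM only at 1.75 and 2.27. The leukocyte markers PTPRC and CD3E, the endothelial PECAM1 and CDH5 and the fibroblast COL3A1 and DCN were also at or near 0, whereas the collagen gene COL1A1, listed with the fibroblast markers, was at a median of 39.9 FPKM. Summed fibroblast markers, nearly all COL1A1, were 39.4 to 56.4 FPKM in DMSO, 32.5 to 51.0 at 0.3 μM and 34.2 to 40.0 at 1 μM. Summed leukocyte markers, nearly all CD14, were 0.234 to 0.663 FPKM in DMSO and 0.919 to 1.07 FPKM at 1 μM, and the part of either list in the results was not tested. In bulk RNA, a change in the mix of cells cannot be told apart from a change of RNA per cell.

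On the FPKM scale, TXNRD1 and NQO1 stood far above the other 7 genes. The median over the 9 samples was 164 for TXNRD1 (range 148 to 182) and 99.2 for NQO1 (94.1 to 108), in the 98.7 and 97.4 percentiles of the 12900 protein-coding genes tested at 1 μM. These neighbours did not overlap. KEAP1 followed with 17.6 (15.8 to 19.6) and NFE2L2 with 15.0 (13.6 to 17.0), and their ranges overlapped. The remaining 5 genes lay close together, with medians of 7.12 for GCLM, 6.17 for HMOX1, 5.59 for GCLC, 5.58 for SRXN1 and 4.48 for SLC7A11, and each overlapped the next in this order. Their percentiles were 45.3 to 57.5, near the middle of the protein-coding genes. The plot of levels by sample shows these scales side by side.

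**Figure D1:**
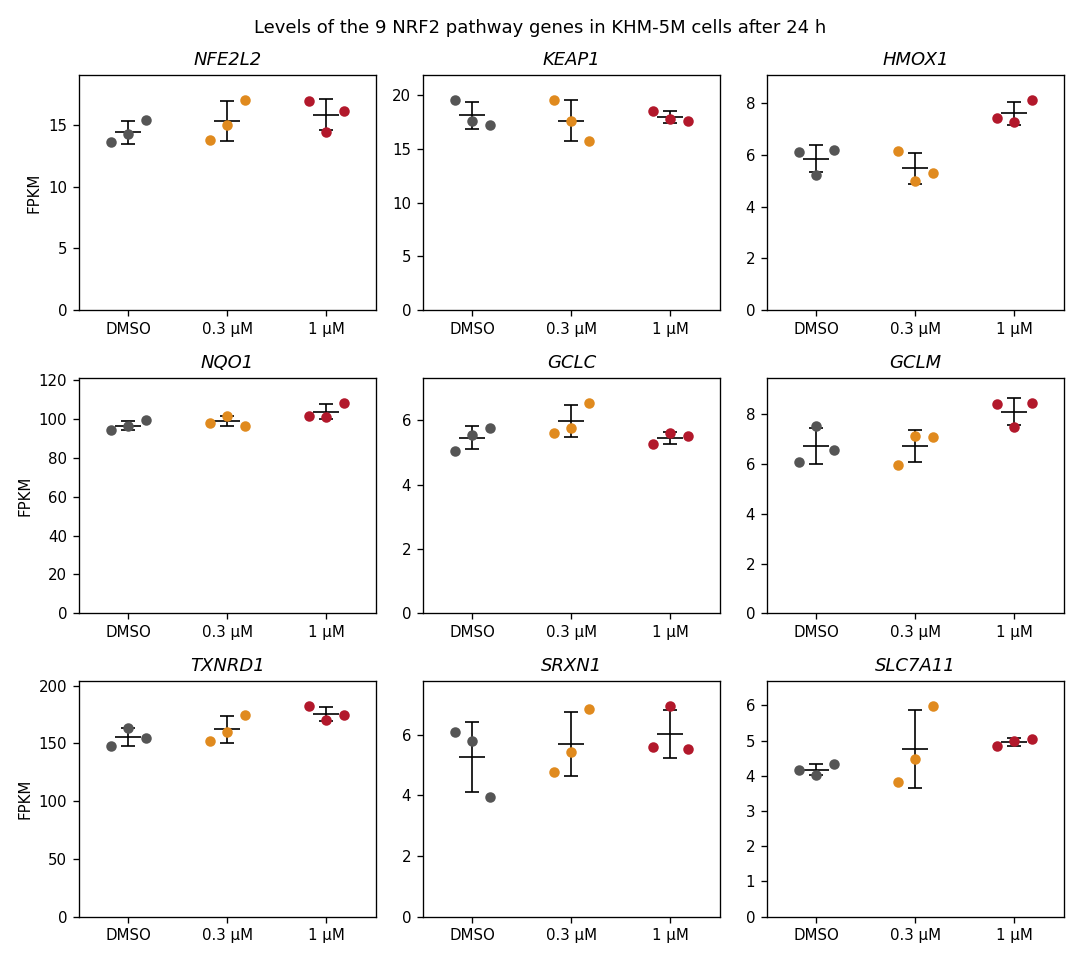
FPKM of the 9 genes (y axis, from 0) in DMSO, 0.3 μM and 1 μM of YK-4-279 (x axis), with points for replicates 1, 2 and 3 from left to right and the mean with its SD as a bar. The 3 samples at 1 μM lie above all 3 DMSO samples for HMOX1, NQO1, TXNRD1 and SLC7A11, and SLC7A11 has its highest value in replicate 3 of the 0.3 μM group.

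At 1 μM, 2 of the 9 genes were called by edgeR's quasi-likelihood test at an adjusted p under 0.05, and both rose: HMOX1 by 1.29-fold and SLC7A11 by 1.17-fold. This is 22.2% of the 9 genes, beside 17.6% of all 15617 genes tested, and 7.67% of all genes were called as higher. None reached the 1.5-fold change of a differentially expressed gene (DEG), beside 3.91% of protein-coding genes. At an unadjusted p under 0.05 there were 4 genes, with GCLM and TXNRD1 added, beside 31.9% of all genes tested. The log2 fold change was above 0 for 7 genes and below 0 for 2, with a median of 0.16 beside -0.01 for all genes tested. The FPKM of all 3 samples at 1 μM lay above all 3 DMSO samples for 4 genes (HMOX1, NQO1, TXNRD1 and SLC7A11), as for 20.0% of all genes tested. An exact two-sided permutation test of 1 gene in groups of 3 has a smallest possible p of 0.1, and the p-values below are therefore those of edgeR.

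At 0.3 μM, 0 of the 9 genes were called against DMSO by edgeR, as were 0.0% of the 15762 genes tested. At an unadjusted p under 0.05 the number of these genes was also 0, beside 3.77% of all genes tested. DESeq2 and limma called 0 of the 9. The log2 fold changes lay between -0.09 for HMOX1 and 0.18 for SLC7A11, and the 3 samples overlapped those of DMSO for all 9. The share of all genes that overlapped in this comparison is not given here. Between the doses, 1 of the 9 genes, HMOX1, was called as higher at 1 μM than at 0.3 μM, beside 12.6% of 15583 genes called in either direction and 5.85% called as higher. The comparisons with DMSO share the same 3 DMSO samples.

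**Figure D2:**
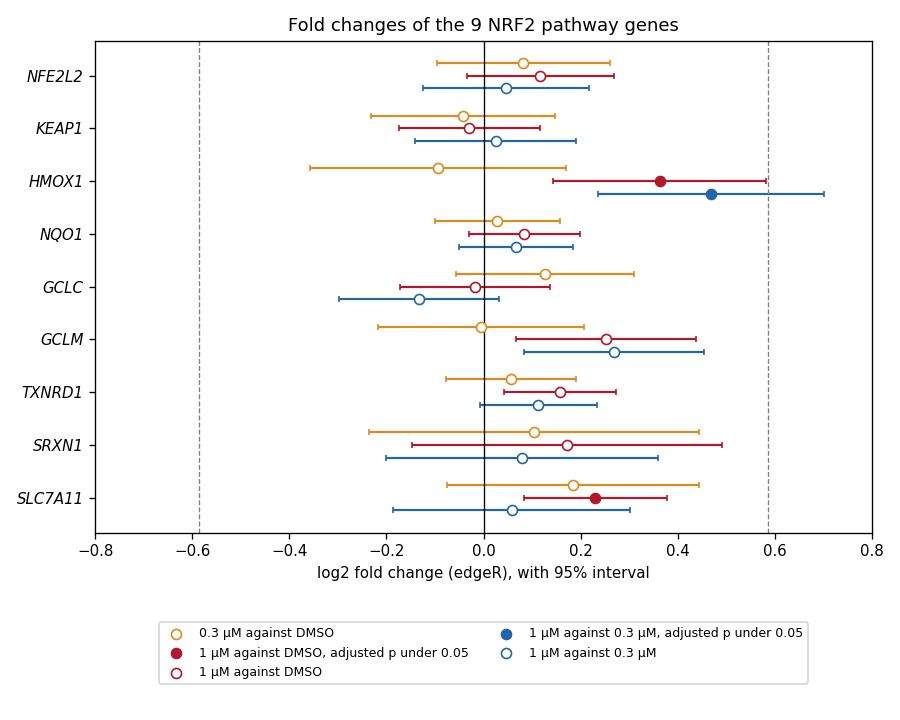
Log2 fold changes from edgeR (x axis) with 95% intervals for the 9 genes (y axis) in the 3 comparisons, filled where the adjusted p is under 0.05 and with dashed lines at 1.5-fold in either direction. HMOX1 is filled in both comparisons of 1 μM, SLC7A11 only against DMSO, and the intervals of the 0.3 μM comparison all cross 0.

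The pair that governs the pathway came first. NFE2L2 (ENSG00000116044, chromosome 2 from 177227595 to 177392697 on the reverse strand of GRCh38) encodes NRF2 itself. It was at 13.6, 14.3 and 15.5 FPKM in DMSO replicates 1, 2 and 3, at 13.8, 15.0 and 17.0 at 0.3 μM and at 16.9, 14.5 and 16.1 at 1 μM. The 3 groups overlapped, with the highest value in replicate 3 of the 0.3 μM group. At 1 μM its log2 fold change was 0.12 (95% interval -0.03 to 0.27, edgeR adjusted p = 0.277), an interval that reaches a rise of 1.21-fold. AGPS overlaps NFE2L2 on the opposite strand with a mean of 1980 counts beside 1602, and whether the counting used strand is not known. KEAP1 (ENSG00000079999, chromosome 19 from 10486120 to 10503741, reverse strand) encodes the protein that holds NRF2 down. It was at 19.6, 17.6 and 17.3 FPKM in DMSO, at 19.6, 17.6 and 15.8 at 0.3 μM and at 18.6, 17.8 and 17.6 at 1 μM, so that the 1 μM samples lay within the range of DMSO. Its fitted log2 change at 1 μM was -0.03 (95% interval -0.17 to 0.12, edgeR adjusted p = 0.814).

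HMOX1 (ENSG00000100292, chromosome 22 from 35380361 to 35394214, forward strand) encodes heme oxygenase 1, which opens heme to biliverdin, carbon monoxide and iron. It was at 6.12, 5.25 and 6.21 FPKM in DMSO, at 6.17, 5.00 and 5.32 at 0.3 μM and at 7.44, 7.30 and 8.13 at 1 μM. The lowest 1 μM sample stood above the highest of the other 6 samples. The counts behind these values were 229 to 255 in DMSO, 218 to 265 at 0.3 μM and 304 to 331 at 1 μM. Against DMSO, HMOX1 rose at 1 μM by a log2 of 0.36 (standard error 0.10, 95% interval 0.14 to 0.58, edgeR adjusted p = 0.0254). Against 0.3 μM the log2 difference was 0.47 (standard error 0.11, 95% interval 0.24 to 0.70, edgeR adjusted p = 0.0108). HMOX1 therefore had the largest change of the 9 genes, and the only one called in both comparisons of the higher dose. The call was lost in some of the fits that left out a sample, which also have fewer samples. Without replicate 3 of the 1 μM group the edgeR adjusted p against DMSO was 0.108. It was 0.0571 without DMSO replicate 2 and 0.050 without replicate 1 of the 1 μM group. Between the doses it was 0.0623 without replicate 3 of the 1 μM group and 0.0552 without replicate 2 of the 0.3 μM group. Over the fits that left out a sample, the log2 fold change at 1 μM against DMSO was 0.29 to 0.41. At 0.3 μM against DMSO the log2 difference was -0.09 (95% interval -0.36 to 0.17).

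NQO1 (ENSG00000181019, chromosome 16 from 69706996 to 69726951, reverse strand) encodes a quinone reductase that keeps quinones from cycling through radicals. It was at 94.1, 96.4 and 99.2 FPKM in DMSO, at 98.1, 101 and 96.4 at 0.3 μM and at 102, 101 and 108 at 1 μM. The 1 μM samples were above all DMSO samples, by little. The log2 fold change at 1 μM was 0.08 (standard error 0.05, 95% interval -0.03 to 0.20, edgeR adjusted p = 0.301), and its interval reached no further than 1.15-fold.

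GCLC and GCLM encode the catalytic and the modifier subunit of glutamate-cysteine ligase, the rate-limiting enzyme of glutathione synthesis, and only GCLM had an unadjusted p under 0.05 at 1 μM. GCLC (ENSG00000001084, chromosome 6 from 53497341 to 53616970, reverse strand) was at 5.05, 5.55 and 5.76 FPKM in DMSO, at 5.61, 5.75 and 6.52 at 0.3 μM and at 5.24, 5.59 and 5.50 at 1 μM. The 1 μM samples lay within the range of DMSO, with a log2 fold change of -0.02 (95% interval -0.17 to 0.14, edgeR adjusted p = 0.895). GCLM (ENSG00000023909, chromosome 1 from 93885205 to 93909456, reverse strand), whose window above holds a core match, was at 6.10, 7.52 and 6.57 FPKM in DMSO, at 5.97, 7.12 and 7.08 at 0.3 μM and at 8.41, 7.49 and 8.45 at 1 μM. Of the 1 μM samples, 2 stood above all others, and replicate 2 lay just under DMSO replicate 2. For GCLM it was 0.25 against DMSO (standard error 0.09, 95% interval 0.07 to 0.44), and the adjusted p of 0.0598 from edgeR missed the threshold. It was 0.27 against 0.3 μM (standard error 0.09), with an adjusted p of 0.0535. Without DMSO replicate 2 the adjusted p against DMSO was 0.0069. A difference between the subunits in their response was not tested.

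SLC7A11 (ENSG00000151012, chromosome 4 from 138164097 to 138242349, reverse strand) encodes the light chain of the cystine and glutamate exchanger, which brings in the cystine used for glutathione. It was at 4.18, 4.03 and 4.33 FPKM in DMSO, at 3.81, 4.48 and 5.97 at 0.3 μM and at 4.84, 4.99 and 5.04 at 1 μM. The DMSO and 1 μM samples were each tightly grouped and did not overlap, whereas the 0.3 μM samples spanned both groups. SLC7A11 rose at 1 μM against DMSO by a log2 of 0.23 (standard error 0.07, 95% interval 0.08 to 0.38, edgeR adjusted p = 0.0325). The adjusted p lay between 0.0507 and 0.115 when any single sample was left out, and was 0.165 when all 9 samples shared a single estimate of spread. The log2 difference between the doses was 0.06 (95% interval -0.19 to 0.30, adjusted p = 0.797 from edgeR).

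TXNRD1 (ENSG00000198431, chromosome 12 from 104215779 to 104350305, forward strand) encodes the cytosolic thioredoxin reductase, a selenoprotein, and was the most abundant of the 9 genes. It was at 148, 164 and 155 FPKM in DMSO, at 152, 160 and 175 at 0.3 μM and at 182, 170.1 and 175 at 1 μM. The 1 μM samples lay above all DMSO samples. The log2 fold change was 0.16 (standard error 0.05, 95% interval 0.04 to 0.27), with an adjusted p of 0.0584 from edgeR, 0.0175 from DESeq2 and 0.0105 from edgeR without DMSO replicate 2. The processed pseudogene RPL18AP3 lies within TXNRD1 on the same strand with a mean of 1883 counts beside 19458, so that some reads may be shared. SRXN1 (ENSG00000271303, chromosome 20 from 646615 to 653370, reverse strand) encodes sulfiredoxin, which repairs overoxidised peroxiredoxins. It was at 6.08, 5.78 and 3.95 FPKM in DMSO, at 4.77, 5.44 and 6.84 at 0.3 μM and at 5.58, 6.94 and 5.54 at 1 μM. DMSO replicate 3 was the lowest of the 9 samples and the groups overlapped. The log2 fold change at 1 μM was 0.17 (standard error 0.15, 95% interval -0.15 to 0.49, edgeR adjusted p = 0.464), the widest interval of the 9 genes, and the log2 fold change was 0.0036 without DMSO replicate 3.

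The 0.3 μM samples were widely spread for SLC7A11, with an SD of 1.11 FPKM beside 0.148 in DMSO. Among the other genes the SD was larger than in DMSO for some, but smaller for GCLM (0.653 beside 0.719) and SRXN1 (1.06 beside 1.15). Replicate 3 of the 0.3 μM group was the highest of its group for 5 of the 9, namely NFE2L2, GCLC, TXNRD1, SRXN1 and SLC7A11. Its median log2 ratio to the other 2 samples was 0.16 over the 9 genes beside -0.0037 over all genes. For replicate 1 the same ratio was -0.13 over the 9 genes beside -0.0043 over all genes. DMSO replicate 3 was likewise the highest of its group for 5 of the 9, with a median log2 ratio to the DMSO mean of 0.04. Genes of the ATF4 stress response, a pathway that also drives SLC7A11, were high in the same 0.3 μM sample. DDIT3, a stress factor chosen after its values were seen, had 257, 202 and 822 counts in replicates 1, 2 and 3, TRIB3 had 1317, 1184 and 2195, and ASNS had 98, 117 and 300. DDIT3 overlaps MARS on the opposite strand, which had a mean of 3666 counts beside 305 for DDIT3. The part of these genes in the SLC7A11 value was not tested. Without that sample the log2 fold change at 0.3 μM against DMSO was -0.01 for SLC7A11, -0.0006 for NFE2L2 and -0.05 for SRXN1, and again 0 of the 9 genes were called.

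**Figure D3:**
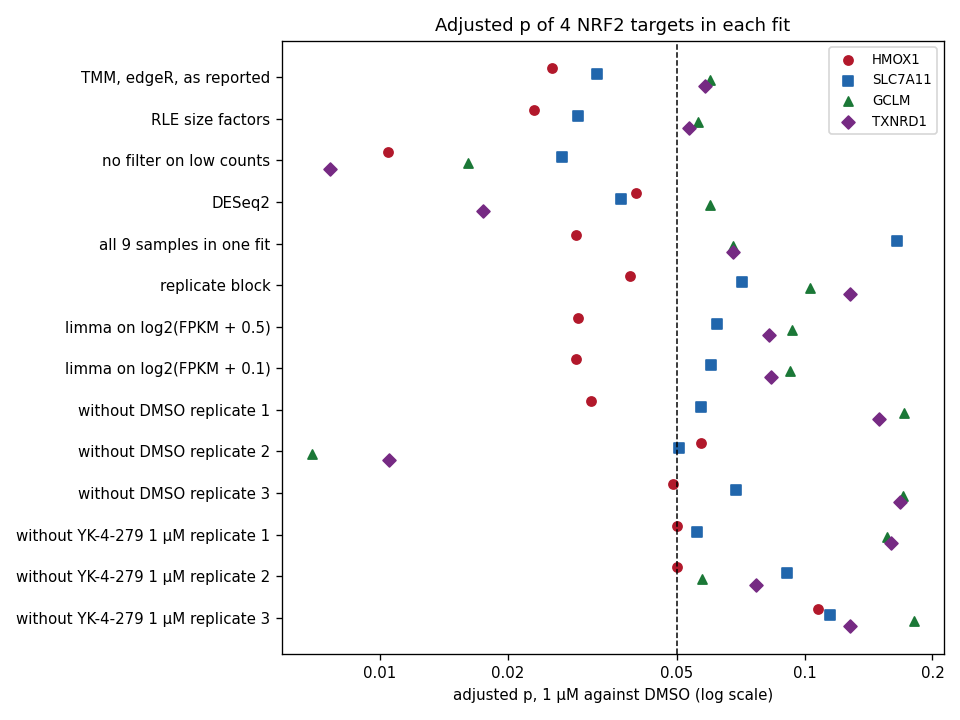
Adjusted p at 1 μM against DMSO (x axis, log scale, dashed line at 0.05) for HMOX1, SLC7A11, GCLM and TXNRD1 under the reported fit, 7 other fits and 6 fits that each leave out a sample (y axis). HMOX1 stays left of the line in the reported fit and the 7 others but not in every fit without a sample, and SLC7A11 moves right of it whenever a sample is left out.

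The wider pathway was described by 8 lists of 100 genes, of which 93 passed the filter on low counts at 1 μM. Of these 93, 20 were called by edgeR (21.5%, beside the 17.6% of all genes) and 5 were DEGs (beside 3.91% of protein-coding genes). Of the 20 called, 15 were higher and 5 lower, while 7.67% of all genes were called as higher. The median log2 fold change of the 93 was 0.03. At 0.3 μM, 0 of 94 were called by edgeR, DESeq2 or limma. An unadjusted p under 0.05 was found for 3, beside 3.77% of all genes tested. Between the doses 13 of 93 were called (beside 12.6% of all genes), 10 as higher (beside 5.85%) and 3 as lower at 1 μM. That count was 6 without replicate 3 of the 1 μM group, 7 without replicate 1, 8 without replicate 2 and 5 with limma on FPKM, and the count at 1 μM against DMSO was 12 without DMSO replicate 3.

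Among the partners and controllers of NRF2, 5 of 13 rose at 1 μM and 0 fell, with a median log2 fold change of 0.22, while 7.67% of all genes were called as higher and 17.6% in either direction. SQSTM1, an autophagy receptor that can sequester KEAP1, was at 35.9, 34.7 and 34.0 FPKM in DMSO, at 40.4, 35.5 and 48.0 at 0.3 μM and at 55.7, 54.4 and 53.0 at 1 μM. The 1 μM samples stood clear of both other groups, and the log2 fold change was 0.62 (standard error 0.05, edgeR adjusted p = 1.21e-05). SQSTM1 overlaps MGAT4B on the opposite strand, which had a similar mean count (5015 beside 5867). MAFF, a small MAF partner, was at 7.90, 7.59 and 6.99 FPKM in DMSO and at 11.9, 11.8 and 11.2 at 1 μM, which is a log2 difference of 0.61 (standard error 0.07, edgeR adjusted p = 7.82e-05). Both were DEGs. The other genes that rose were CUL3, the scaffold of the KEAP1 ligase (log2 of 0.39), NFE2L3, a relative of NRF2 (0.27), and BACH1, a repressor that competes with NRF2 at its elements and at HMOX1 in particular (0.22). CUL3, NFE2L3 and BACH1 were named after their values were seen, as were the genes below that are neither a DEG nor the largest called rise or fall of their list. With each of the 6 samples left out in turn, CUL3 kept its call in 6 fits, NFE2L3 in 5 and BACH1 in 2. NFE2L3 overlaps HNRNPA2B1 on the opposite strand, which had many more counts.

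Heme and iron genes, the setting of HMOX1, had 4 of 9 called, all higher, with a median log2 fold change of 0.27, beside the same 7.67% of all genes. TFRC, the transferrin receptor that takes in iron, was at 8.82, 9.40 and 9.75 FPKM in DMSO, at 9.72, 9.54 and 10.3 at 0.3 μM and at 14.8, 13.2 and 13.0 at 1 μM. Its log2 fold change at 1 μM was 0.54 (standard error 0.07, edgeR adjusted p = 0.000159). FTH1, the ferritin heavy chain that stores iron, rose by a log2 of 0.35 from a mean of 381 to 491 FPKM, although FTH1 has many near-identical pseudogenes that could take some of its reads. HMOX2, the constitutive heme oxygenase, rose by 0.31, and ALAS1, which starts heme synthesis, rose by 0.27. TFRC and FTH1 kept their calls in all 6 fits with a sample left out, ALAS1 in 5 and HMOX2 in 4. FTL, the ferritin light chain and a textbook NRF2 target, had a log2 fold change of 0.17 with an adjusted p of 0.0533 from edgeR.

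Of 25 genes of glutathione synthesis, use and export tested, 2 fell and 0 rose at 1 μM, with a median log2 fold change of -0.001. The share called was 8%, beside 17.6% of all genes tested. ABCC3, an exporter of conjugates, fell by 0.49 on the log2 scale (standard error 0.11, edgeR adjusted p = 0.00703), and GGCT, which breaks down glutathione products, fell by 0.35 (standard error 0.11, edgeR adjusted p = 0.0357). The call of GGCT was lost whichever sample was left out, and that of ABCC3 was kept in all 6 fits. In the 7 other fits that used all samples, ABCC3 kept its call in 5 and GGCT in 4. SLC3A2, the heavy chain that pairs with SLC7A11, stood at -0.14 on the log2 scale (standard error 0.06, edgeR adjusted p = 0.134), opposite in sign to its partner. Among 13 thioredoxin, peroxiredoxin and sestrin genes, TXNIP, the inhibitor that binds thioredoxin, rose and TXNRD2, the mitochondrial thioredoxin reductase, fell. These 2 are 15.4% of the 13, beside the same 17.6% of all genes. TXNIP was at 13.2, 14.3 and 13.4 FPKM in DMSO, at 22.1, 17.4 and 9.13 at 0.3 μM and at 26.8, 29.1 and 29.2 at 1 μM. Its rise of 2.06-fold at 1 μM (log2 of 1.04, standard error 0.06, edgeR adjusted p = 2.69e-06) was the largest rise of all listed genes, and the 0.3 μM samples were widely spread. TXNRD2 fell by 0.29 on the log2 scale (standard error 0.07, edgeR adjusted p = 0.0127).

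Of the 7 genes that supply NADPH, the electron source of TXNRD1 and NQO1, 0 were called by edgeR, beside 17.6% of all genes tested. At an unadjusted p under 0.05 there was 1, beside 31.9% of all genes tested. Of 14 genes of quinone, carbonyl and electrophile metabolism, 3 rose and 0 fell, with a median log2 fold change of 0.02. The share called was 21.4%, beside 17.6% of all genes in either direction and 7.67% called as higher. The genes that rose were AKR1C3, an aldo-keto reductase (log2 of 0.49), TRIM16 (0.38) and OSGIN1 (0.36). AKR1C3 shares much of its sequence with AKR1C1 and AKR1C2, so some reads may be shared. AKR1C3 and OSGIN1 kept their calls in 3 of 6 fits with a sample left out, and TRIM16 in 2. Of 7 enzymes of superoxide and hydrogen peroxide, 1 was called (14.3%, beside the same 17.6% of all genes). SOD2, the mitochondrial superoxide dismutase, was at 12.2, 12.9 and 12.0 FPKM in DMSO and at 27.6, 16.5 and 15.3 at 1 μM, a log2 fold change of 0.66 (standard error 0.16, edgeR adjusted p = 0.00958). Replicate 1 of the 1 μM group set much of the size: without it the log2 fold change was 0.35, with an adjusted p of 0.0046, and DESeq2 gave an adjusted p of 0.0931 for all samples. SOD2 kept its call in 4 of the 7 other fits that used all samples.

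Of 5 ATF4 stress genes, 1 rose and 2 fell at 1 μM. Called genes were thus 3 of a list of only 5, beside 17.6% of all genes tested. ASNS, asparagine synthetase, was at 2.09, 2.08 and 2.01 FPKM in DMSO, at 1.23, 1.45 and 3.85 at 0.3 μM and at 0.830, 0.895 and 0.783 at 1 μM. Its log2 fold change at 1 μM against DMSO was -1.32 (standard error 0.14, edgeR adjusted p = 5.35e-05). ATF4 itself fell by 0.22 on the log2 scale, and TRIB3, a pseudokinase, rose by 0.32. ATF4 kept its call in 4 of 6 fits with a sample left out, and TRIB3 and ASNS in all 6. In the 7 other fits that used all samples, ASNS kept its call in 7 and ATF4 and TRIB3 in 6.

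**Figure D4:**
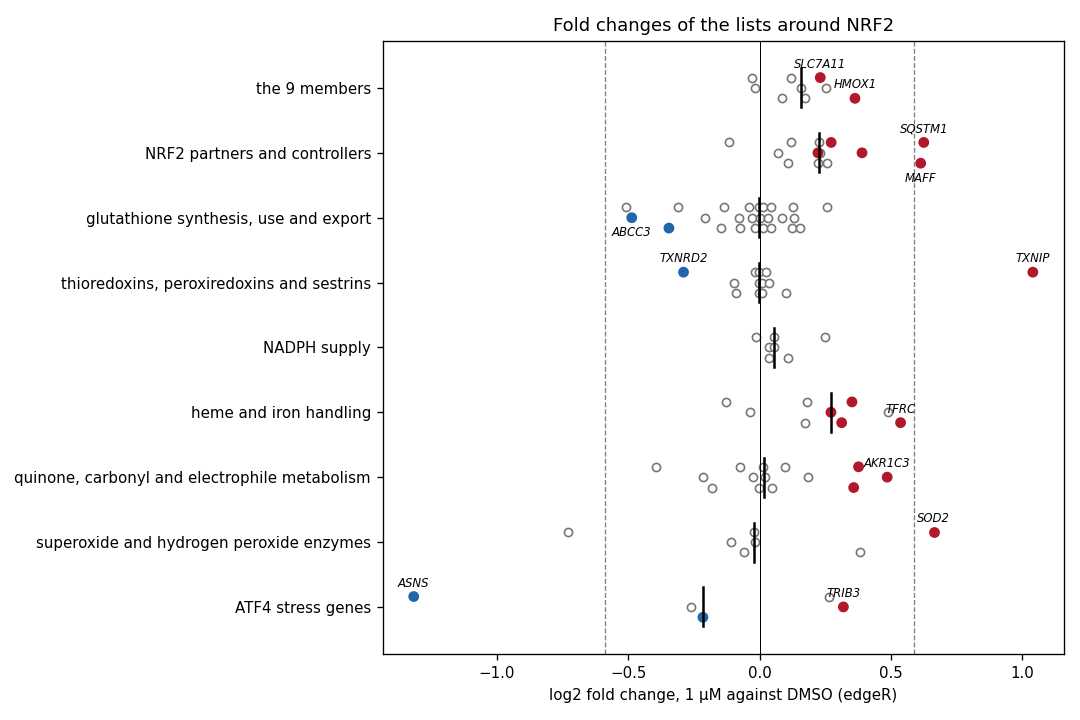
Log2 fold changes at 1 μM against DMSO (x axis) for the 9 genes and the 8 lists (y axis), filled in red or blue where called as higher or lower, with a black bar at the median of each list and dashed lines at 1.5-fold. The lists of partners and controllers and of heme and iron genes have medians of 0.22 and 0.27, while the other lists that hold over 5 genes have medians near 0.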

How the data were processed

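RNA was taken from KHM-5M cells after 24 h with DMSO or YK-4-279, with 3 samples per group, and sequenced after poly(A) selection. The authors aligned reads to GRCh38 with HISAT2 (2.0.5 in the submitters' processing notes) and counted them per gene. The counting tool is HTseq in the paper and featureCounts 1.5.0-p3 in the notes, and whether the counting used strand is not given in the sources used here. The paper names a stranded library kit and the labels a TruSeq RNA kit without that word. The paper names 2 biological replicates per condition and the labels give 3, which were used. Counts were deposited as whole numbers without normalization. FPKM values were made by the authors from counts, gene length and library size. The 10 columns of the authors' comparisons, which hold fold changes, p-values and adjusted p-values, were not used.

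Counts were tested with edgeR 4.0.16 in R 4.3.3 (filterByExpr at a minimum count of 10, TMM, quasi-likelihood test on the groups compared, Benjamini-Hochberg adjustment over all genes tested). A gene was called at an adjusted p under 0.05, and a DEG was also protein-coding with an absolute log2 fold change over 0.587. The paper defines its DEGs by the same fold change and a P-value under 0.05, without stating that this was the adjusted value. Its numbers of DEGs may therefore rest on another threshold. Within groups every sample was kept as its own library, since the chi-square of the 9 pairs within groups was 3.20 to 10.7 times its degrees of freedom. Steps were tested on simulated data. Alternatives were RLE size factors, no filter beyond a total count of 1, DESeq2 1.42.0, a joint fit of the 9 samples, a replicate block, limma 3.58.1 on log2(FPKM + 0.5) or log2(FPKM + 0.1), and each sample left out. Python 3.11.15 with numpy 2.4.6, pandas 2.3.3, scipy 1.17.1 and matplotlib 3.10.9 served for tables, the motif search and figures.

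The genes and lists were chosen with earlier results of these data known. By rule, genes named are the 9 genes, each listed gene that is a DEG, the largest called rise and fall of each list, and the 3 genes whose log2 values correlate best with HMOX1. Other genes named, such as the remaining called genes of a list with 5 or fewer calls, were chosen after their values were seen. SOD2 has more than 1 row, and the row with the higher mean was used. Counts of 100 listed genes include 7 that did not pass the filter at 1 μM: GPX2, ABCB6, AKR1B10, ALDH3A1, CYBB, NOX4 and DUOX2. Results of single genes that are withheld are not reported here.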

Additional observations from a re-analysis of the deposited data

Results flagged for a closer look

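The following genes differed between 1 μM and 0.3 μM of YK-4-279 in the direct test of the 2 doses (edgeR, adjusted p under 0.05), and are given as log2 differences of 1 μM over 0.3 μM. HMOX1 was higher by 0.47. Among partners and controllers of NRF2, SQSTM1 was higher by 0.39, MAFF by 0.39, CUL3 by 0.36 and NFE2L3 by 0.22. Among heme and iron genes, TFRC was higher by 0.47, HMOX2 by 0.28 and FTH1 by 0.24. TXNIP was higher by 0.80 and AKR1C3 by 0.45. UGDH, a sugar dehydrogenase chosen after its values were seen, was higher by 0.33. The values were -0.48 for ABCC3, -0.23 for TXNRD2 and -1.38 for ASNS. ASNS was at 1.23, 1.45 and 3.85 FPKM in replicates 1, 2 and 3 at 0.3 μM, so that replicate 3 sets part of its difference. The same sample was the lowest of its group for TXNIP, at 9.13 FPKM beside 22.1 and 17.4. It was the highest for SQSTM1 (48.0 beside 40.4 and 35.5) and MAFF (11.0 beside 8.56 and 7.05). The edgeR adjusted p lay near the threshold for AKR1C3 (0.0464), NFE2L3 (0.0444) and TXNRD2 (0.0422).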

How the results depend on the processing

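HMOX1 kept its call at 1 μM against DMSO in all 7 fits that used all samples, with adjusted p between 0.0105 and 0.0401, and in 3 of 6 that left out a sample (0.0314 to 0.108). Of the 9 genes, the number called was 4 with no filter on low counts (GCLM and TXNRD1 added) and 3 with DESeq2 (TXNRD1 added), and it was 1, HMOX1, with all 9 samples in a single fit, with the replicate block, and with limma on FPKM at either pseudocount. SLC7A11 lost its call there, with adjusted p of 0.165, 0.0714, 0.0622 and 0.0603. Leaving out a sample gave 0 to 2 called genes, with 2, GCLM and TXNRD1, without DMSO replicate 2, 0 without replicate 1 or replicate 3 of the 1 μM group and 1 without DMSO replicate 1, DMSO replicate 3 or replicate 2 of the 1 μM group. Between the doses the count was 2 with no filter, and 0 to 2 with a sample left out. For the listed genes the count at 1 μM was 12 to 19 with a sample left out, lowest without DMSO replicate 3. Between the doses it was 6 to 12, with 6, 7 and 8 without replicates 3, 1 and 2 of the 1 μM group, and 5 with limma on FPKM at either pseudocount. At 0.3 μM it was 2 with no filter and 0 in the other fits. The cause of these moves was not tested. Fold changes near 0 turned sign. GCLM at 0.3 μM was 0.0047 with no filter and 0.0011 with DESeq2, and GCLC at 1 μM was 0.0088 with no filter and 0.000273 and 0.000401 with limma. With a sample left out, the log2 fold changes at 0.3 μM ranged from -0.122 to 0.0335 for KEAP1, -0.069 to 0.0852 for GCLM, -0.0641 to 0.219 for SRXN1, -0.000626 to 0.151 for NFE2L2 and -0.011 to 0.322 for SLC7A11. At 1 μM they ranged from -0.0647 to 0.0337 for KEAP1 and from -0.0654 to 0.0214 for GCLC. Between the doses they ranged from -0.0197 to 0.125 for NFE2L2, -0.0303 to 0.228 for SRXN1, -0.0777 to 0.248 for SLC7A11 and -0.055 to 0.107 for KEAP1. Samples that share a replicate number showed at most a weak tendency to deviate together. The correlation of deviations from the group means was -0.02 to 0.08 over 9 pairs, beside -0.07 to 0.04 for 18 pairs of unequal number. The highest value was that of a same-numbered pair, and such weak correlations cannot decide whether the number marks samples handled together. With the replicate block 17 listed genes were called at 1 μM. HMOX1 had 218 to 331 counts and SRXN1 182 to 324, with standard errors of 0.10 and 0.15 at 1 μM against DMSO. These errors limit how small a change could be seen, and the part of depth in them was not tested.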

Other observations

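Of 14167 genes with a mean of at least 1 CPM, the 3 whose log2 CPM (counts scaled to the library total) followed HMOX1 most closely over the 9 samples were PIP4K2C, a lipid kinase, HOXC4, a homeobox factor, and FASTKD5, a mitochondrial RNA-binding protein. Their mean FPKM in DMSO, at 0.3 μM and at 1 μM were 13.5, 13.1 and 15.2 for PIP4K2C, 3.16, 3.12 and 3.74 for HOXC4, and 8.43, 8.19 and 11.6 for FASTKD5. All were highest at 1 μM, like HMOX1. They were taken as the closest of many genes, so that a close match over 9 samples in 3 groups is a description only.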
